A study of Mus musculus with 2 samples.

Results

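C1q macrophages that were not dividing were examined in single-cell RNA sequencing of salivary glands from female NOD/ShiLtJ mice and female CD1 mice, all aged 20 weeks. NOD/ShiLtJ (NOD below) is an inbred strain used as a model of Sjögren's disease, and CD1 is the outbred control strain; no agent was given to either as far as the labels say. Each strain gave 1 library, made from pooled submandibular and adjacent sublingual glands, from which cells carrying EpCAM or Ter119 and dead cells had been removed. A pool held 3 mice by the labels and 4 by the published methods. The members were selected on measured values, the UMIs of each barcode (unique molecular identifiers, 1 for each RNA molecule caught). A member had at least 5 UMIs of *C1qa*, *C1qb* and *C1qc* together, at least 2 of *Csf1r*, none of the division genes *Mki67* and *Top2a*, and at most 1 UMI of each of the T cell, B cell and endothelial gene sets. Of the 4917 NOD and 5674 CD1 barcodes kept, 283 and 1578 were members, which is 5.76% (Clopper-Pearson 95% interval 5.12 to 6.44) of the NOD library and 27.8% (26.6 to 29.0) of the CD1 library. In the NOD library 38.6% of the kept barcodes were T cells and in the CD1 library 2.80%, and the tissue was depleted of epithelium, so these shares describe what the preparation left and not the gland. With 1 pool per strain there is no replicate. Differences between strains could therefore not be tested, and every interval below covers counting error only.

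Macrophages are resident phagocytes that take up dead cells and particles, break them down in lysosomes, export the lipid that results, and present peptides to T cells on MHC class II molecules. C1q, the recognition subunit of the classical complement pathway, is made largely by tissue macrophages, and CSF1R is the receptor for the growth factors on which these cells depend. Interferon gamma, released mainly by T cells and natural killer cells, and type I interferons, released by many cells, act on macrophages through STAT proteins, which switch on genes for antigen presentation, guanylate-binding GTPases and antiviral proteins.

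The members of both libraries were of like median depth, although the shallowest NOD members were shallower, with a 5th percentile of 1693 UMIs against 3083 in CD1. The median was 8949 UMIs and 3167 genes per cell in NOD and 8800.5 UMIs and 3008 genes in CD1, and the median mitochondrial share was 4.24% and 4.72%. Summed over the members, the NOD library held 2548753 UMIs and the CD1 library 14224586, so the NOD values carry the wider errors. No barcode was shared by the members of the libraries, and 6 were shared among all kept barcodes. The requirement for C1q UMIs left 559 NOD and 2400 CD1 barcodes, that for *Csf1r* left 364 and 1937, and that for no division gene left 321 and 1701. The limits on other lineages took away another 38 NOD barcodes, 18 of them through the Cd3 genes, and 123 CD1 barcodes, 106 of them through *Pecam1* and *Cdh5*. Just inside the C1q threshold, with 5 to 7 UMIs, lay 5 NOD and 14 CD1 members, and just outside, with 2 to 4 UMIs, lay 2 and 11 barcodes. The *Csf1r* threshold cut through more cells. At exactly 2 UMIs there were 31 NOD and 87 CD1 members, and 55 NOD and 149 CD1 barcodes with 1 UMI were left out, with median depths of 1984 and 2513 UMIs inside against 1778 and 1753 outside.

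Markers that the rule did not use were those of macrophages in both libraries. Levels are given in CPM, the UMIs of a gene per 1000000 UMIs of all members. *Cx3cr1*, the fractalkine receptor of tissue macrophages and microglia, stood at 1551 (NOD) and 1561 CPM (CD1), against 1.79 and 4.06 CPM in endothelial barcodes of the same libraries, which had at least 2 UMIs of *Pecam1* and *Cdh5* together and none of *Csf1r*. *Adgre1*, which encodes the F4/80 antigen, stood at 627 and 514 CPM, against 0.650 and 1.70 in endothelial barcodes. *Gatm*, an enzyme of creatine synthesis, stood at 1398 and 1572 CPM, against 4.38 and 6.48. These levels lay from 243-fold to 965-fold above the endothelial ones. The list of 30 macrophage identity genes had 29 in the files, and all 29 passed the minimum of a mean of 10 CPM over the libraries that was used for every gene. None of them differed 2-fold between the strains, and their median log2 ratio of NOD over CD1 was -0.01, against 0.09 over all 8635 genes that passed. The list holds 4 genes of the rule itself, among them *C1qa* at 5170 and 5292 CPM and *Csf1r* at 902 and 1030 CPM, whose likeness was set in part by the selection.

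**Figure D1:**
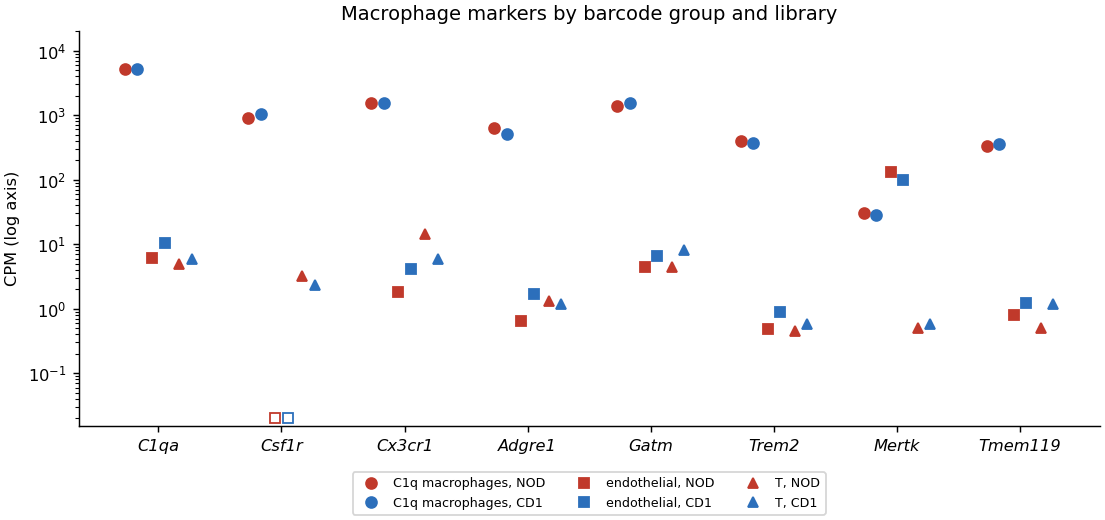
Levels of 8 macrophage markers in CPM on a log axis, in C1q macrophages (circles), endothelial barcodes (squares) and T barcodes (triangles) of the NOD (red) and CD1 (blue) libraries; open symbols at the foot of the axis are levels of 0. In the macrophages *Cx3cr1* stood at 1551 and 1561 CPM, whereas *Mertk* at 30.2 and 28.1 CPM lay below the endothelial levels of 129.9 and 100.3 CPM.

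Within that likeness, individual identity genes leaned either way. *Fcgr1*, the high-affinity receptor for IgG, was higher in NOD, at 670 CPM against 424 (log2 ratio 0.66, 95% interval 0.58 to 0.74). *Zeb2*, a transcription factor needed by tissue macrophages, stood at 1875 against 1480 CPM (log2 0.34, 0.30 to 0.39). *Cd14*, the co-receptor for lipopolysaccharide, was lower in NOD, at 231 CPM against 432 (log2 -0.91, -1.03 to -0.78). *Itgam*, which encodes CD11b, was also lower, at 56.9 against 104 CPM (log2 -0.87, -1.13 to -0.62). Over the list, the interval lay above 0 for 9 genes, below 0 for 12 and held 0 for 8, beside 26.5% above 0 and 12.2% below 0 among all 8635 genes compared.

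The members carried several genes best known from microglia, the macrophages of the brain, and few of the genes of the perivascular, LYVE1-positive macrophages found in many organs. *Tmem119* and *P2ry12*, which were looked up after their values were seen, stood at 335 and 359 CPM and at 188 and 193 CPM in NOD and CD1. *Sall1*, the transcription factor that marks microglia, had no UMI in either library; taken as 3 UMIs, the limit for a count of 0 is 1.18 CPM in NOD and 0.211 CPM in CD1. *Olfml3* and *Smad7*, the latter an inhibitor of TGF-beta signalling, were higher in NOD (log2 0.72 and 0.51), whereas the purinergic receptor gene *P2ry13* stood at 37.7 CPM in NOD against 81.1 in CD1 (log2 -1.11, -1.42 to -0.81). Of 20 perivascular and resident genes, 6 had no UMI in either library (*Lyve1*, *Cd163*, *Marco*, *Fcna*, *Cd209f* and *Cd209g*), and 3 passed the minimum. Of those, *Mrc1*, the mannose receptor, stood at 36.1 CPM in NOD against 12.7 in CD1, with 83.7% of the NOD UMIs in 5 cells and a log2 ratio of 0.05 once cells with UMIs of the monocyte genes *Ccr2*, *Ly6c2* or *Plac8* were left out, and *Pf4*, a chemokine, at 30.2 against 67.6 CPM.

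Markers of other cell types were scarce among the members. For T cell, B cell and endothelial genes this was set in part by the selection, because the rule allowed at most 1 UMI of each set. The 14 T cell genes summed to 151 CPM in NOD against 125 in CD1, and 113 and 117 CPM of that were *Il7r*; without *Il7r* the sums were 38.8 and 8.37 CPM (log2 2.22, 1.82 to 2.61). *Cd3e*, one of the genes that the rule limited, had 5 UMIs in the NOD and 2 in the CD1 members. In empty droplets the T cell list summed to 2306 and 234 CPM. The 10 B cell genes summed to 123 and 100.5 CPM, mostly *Ighm* at 85.1 and 82.3 CPM. The 12 endothelial genes summed to 41.6 and 68.2 CPM, the 10 epithelial genes to 13.3 and 28.2 CPM, and the 5 erythroid genes to 1.57 and 3.59 CPM. The 9 natural killer cell genes summed to 51.8 and 48.8 CPM, led by *Xcl1* at 12.2 and 12.2 CPM, and the 8 neutrophil genes to 64.3 and 66.6 CPM, of which *Csf3r*, also a macrophage gene, gave 63.6 and 45.3 CPM and *Ly6g* had no UMI. Mast cell genes had 0 and 1 UMI. The 23 salivary secretory genes, products of acini and ducts that macrophages do not make, summed to 406 CPM in NOD against 972 in CD1 and to 322 and 5535 CPM in empty droplets, led by *Prol1*. Of the 10 that passed the minimum, 6 were past 2-fold lower in NOD and 2 higher, beside 1.49% and 3.3% of all genes. Those 2 passed only through their NOD level. The 11 dendritic cell genes summed to 414 and 387 CPM, of which *Siglech* gave 244 and 336, and *Ccr7* had no UMI. *Clec9a*, a receptor for dead cells known from cross-presenting dendritic cells, was the exception, at 148 CPM in NOD against 37.0 in CD1 and in 54.1% and 20.2% of the members, beside *Flt3* with 4 and 13 UMIs and *Xcr1* with 11 and 16 UMIs.

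Stromal and monocyte genes were higher in the NOD selection, and many of their UMIs lay in a few cells. The 12 stromal genes summed to 208 CPM in NOD against 44.5 in CD1, led by *Dcn* (decorin) at 133 and 22.2 CPM, and 98.8% of the NOD UMIs of *Dcn* were in 5 cells. Of 15 monocyte genes, 5 passed the minimum and all 5 were past 2-fold higher in NOD, beside 3.3% of all genes. However, 4 of the 5 reached the minimum only through their NOD level and so had to be higher there. The list summed to 316 CPM in NOD against 41.3 in CD1. *Ccr2*, the receptor that draws monocytes out of the marrow, stood at 93.0 against 20.3 CPM and was seen in 55 of 283 NOD and 109 of 1578 CD1 cells. By contrast *Fn1* (fibronectin) had all of its NOD UMIs in 5 cells, *Plac8* 96.2% in 5 cells, and *S100a4* 76.2% in 5 cells, and *Ly6c2*, which defines inflammatory monocytes, had 9 and 5 UMIs. In empty droplets, taken as barcodes of 10 to 100 UMIs that hold free RNA, *S100a4* stood at 720 CPM in NOD against 104 in CD1. Without cells that held *Ccr2*, *Ly6c2* or *Plac8*, 224 NOD and 1462 CD1 members were left, and the log2 ratios of the summed programmes below changed little: -0.41 for class II, 0.57 for class I, 1.68 for the interferon-gamma GTPases and 0.96 for the type I interferon response.

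Over all genes, the strains were alike in most and differed strongly in few. Of 8635 genes, 285 were at least 2-fold higher in the NOD members (3.3% of the genes) and 129 at least 2-fold lower (1.49%). A gene could pass the minimum through its NOD level alone, and among the 8329 genes with at least 10 CPM in CD1 154 were higher (1.85%) and 129 lower. The 129 could not change, because a gene 2-fold lower in NOD that passed always has over 10 CPM in CD1. Lower genes could likewise pass through their CD1 level alone, and no count with a minimum in NOD alone was made. Of the 285, 22 had over 80% of their NOD UMIs in 5 cells. Of the identity genes 0 of 29 were past 2-fold in either direction, of the lysosomal genes 3 of 78 and of the lipid genes 4 of 62, whereas 14 of 17 interferon-gamma GTPases and 25 of 42 type I interferon response genes were higher in NOD.

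**Figure D2:**
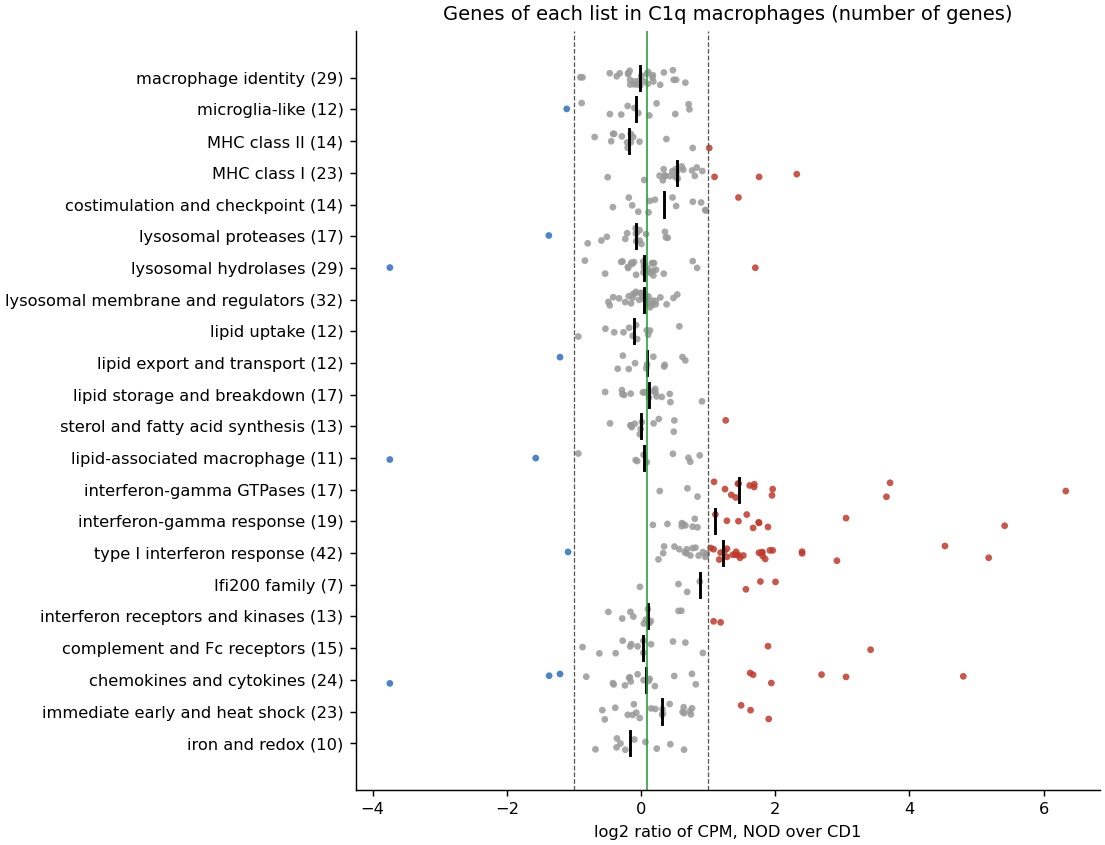
Log2 ratio of CPM, NOD over CD1, for each gene (points) of 22 lists with a mean of at least 10 CPM, with the number of genes in brackets; red and blue points are at least 2-fold higher and lower in NOD, black bars are list medians, dashed lines mark 2-fold and the green line is the median of all 8635 genes at 0.09. The points of the interferon-gamma GTPases (median 1.46) and the type I interferon response (median 1.21) lie to the right, whereas those of the lysosomal lists are centred near the green line.

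Genes for antigen presentation by MHC class II were abundant in these cells, and their summed level was lower in the NOD members, by less than 2-fold. The 17 genes of the list summed to 36271 CPM in NOD against 47832 in CD1 (log2 -0.40, -0.41 to -0.39), and without *Cd74* to 26210 and 31591 CPM. *Cd74*, the invariant chain that guides class II molecules to the lysosome, stood at 10061 CPM in NOD against 16240 in CD1 (log2 -0.69, -0.71 to -0.67). The chains of the I-A molecule, *H2-Aa* and *H2-Ab1*, stood at 7644 against 9315 CPM and at 6578 against 8681 CPM. *H2-DMb1*, part of the peptide exchange factor H2-DM, stood at 430 against 586 CPM. Of the 14 genes that passed, 1 was past 2-fold higher and none lower, beside 3.3% and 1.49% of all genes. This was *H2-Eb2*, at 24.3 CPM in NOD against 12.02 in CD1 (log2 1.02, 0.57 to 1.44). Over the list, the interval lay above 0 for 2 genes, below 0 for 7 and held 0 for 5, beside 26.5% above 0 and 12.2% below 0 among all genes. *H2-Ea*, the partner chain of *H2-Eb1* and looked up after its value was seen, had 0 UMIs in NOD and 4 in CD1, whereas *H2-Eb1* stood at 7168 and 8227 CPM. *Ciita*, the master activator of class II transcription, went the other way from the summed level and was higher in NOD, at 335 CPM against 196 (log2 0.77, 0.66 to 0.88).

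The lower class II level was found in much of the NOD selection rather than in a few cells. With each cell thinned to 2000 UMIs, which left out 19 NOD and 44 CD1 cells that were shallower, the 264 NOD cells held a median of 71.5 class II UMIs (10th to 90th percentile 32 to 115) and the 1534 CD1 cells 98.5 (52 to 142). The distributions overlapped, and 28.0% of the NOD cells lay below the 10th percentile of the CD1 cells. In endothelial barcodes the same list went the opposite way, at 948 CPM in NOD against 399 in CD1 (log2 1.25, 1.20 to 1.30), and in T barcodes it stood at 712 and 778 CPM. In the 33 NOD and 217 CD1 dividing C1q macrophages it was again lower in NOD, at 31534 against 37557 CPM, and the few dendritic barcodes (29 and 7) had 27241 and 20818 CPM. The dendritic barcodes were selected with at least 10 UMIs of *H2-Ab1* and *Cd74* together. Their class II level was therefore set in part by the selection.

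MHC class I genes, which present peptides from within the cell to CD8 T cells, were higher in the NOD members across nearly the whole list. The median log2 ratio of the 23 genes that passed was 0.54, the interval lay above 0 for 21 of them, beside 26.5% of all genes, and the sum was 10613 CPM in NOD against 7386 in CD1. Of the 23 genes, 3 were past 2-fold higher, beside 3.3% of all genes, and 2 of these were below 10 CPM in CD1. Among genes with at least 10 CPM in CD1, 1 of 21 was past 2-fold higher, beside 1.85% of all genes. *Nlrc5*, the activator of class I transcription, stood at 212 CPM in NOD against 62.6 in CD1 (log2 1.76). *H2-Q7* stood at 23.5 and 4.71 CPM and *H2-T10* at 21.2 and 9.91 CPM; both belong to families of near-identical copies, between which reads can be split. *H2-K1*, a classical heavy chain, stood at 1493 against 793 CPM (log2 0.91, 0.86 to 0.97), and *B2m*, the shared light chain, at 3279 against 2261 CPM. *H2-T23* was the one gene with its interval below 0, at 68.7 against 96.9 CPM. In endothelial barcodes the class I list was slightly lower in NOD, at 9803 against 10812 CPM.

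**Figure D3:**
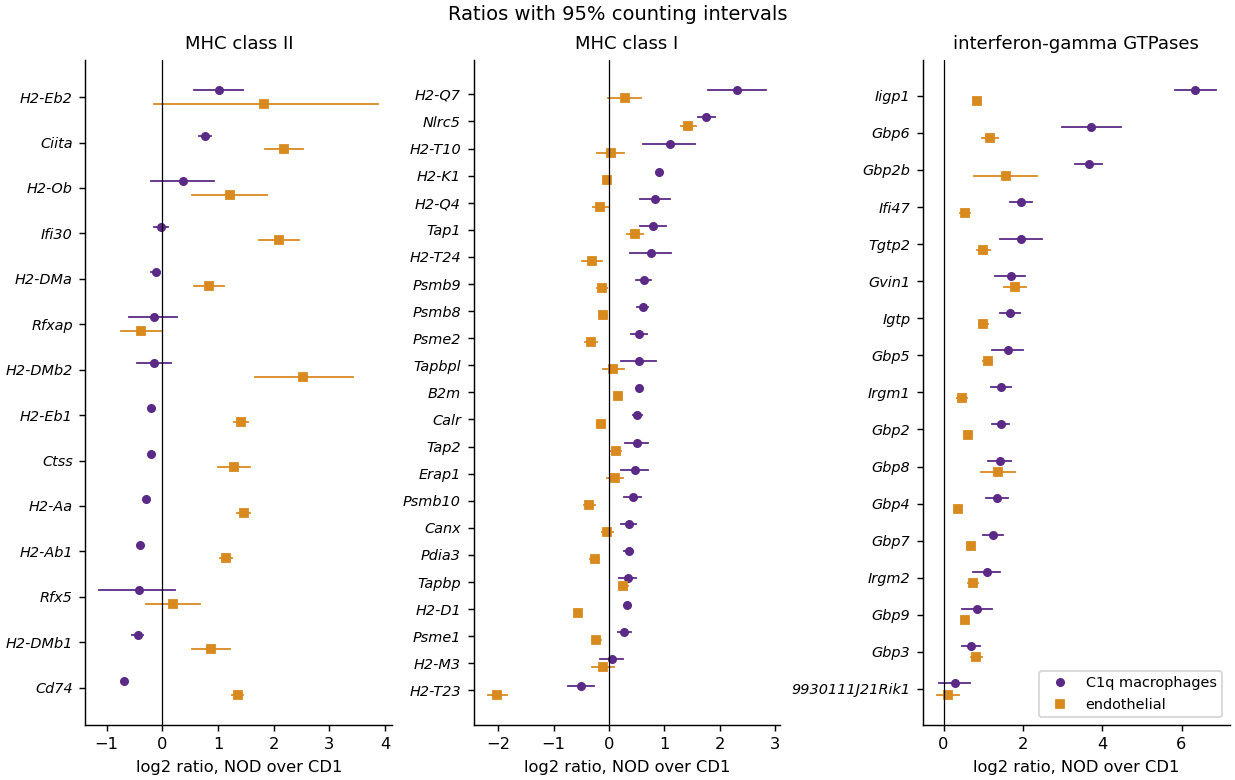
Log2 ratios of CPM, NOD over CD1, with 95% counting intervals in C1q macrophages (purple circles) and endothelial barcodes (orange squares), for genes of the class II, class I and interferon-gamma GTPase lists that had UMIs in endothelial barcodes of both libraries. *Cd74* lies at -0.69 in macrophages and 1.35 in endothelial barcodes, *H2-K1* at 0.91 and -0.04, and *Iigp1* at 6.33 and 0.85.

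Among the genes for co-stimulation and checkpoints, 1 of 14 was past 2-fold higher, beside 3.3% of all genes. *Cd274*, which encodes the inhibitory ligand PD-L1, stood at 29.8 CPM in NOD against 10.9 in CD1 (log2 1.45, 1.04 to 1.86). *Cd86*, the ligand of CD28 on T cells, was the most abundant of the list, at 799 against 577 CPM. *Il15*, a growth factor of memory T cells and natural killer cells, stood at 72.2 against 42.2 CPM, while *Tnfsf13b* (BAFF), a survival factor for B cells, was lower in NOD, at 242 against 323 CPM (log2 -0.42, -0.54 to -0.30). *Il12b* stood at 25.5 against 13.2 CPM, and 98.5% of its NOD UMIs were in 5 cells.

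Most lysosomal genes were near level between the strains. Of 78 genes for lysosomal proteases, hydrolases and membrane proteins that passed, 1 was past 2-fold higher in NOD and 2 were past 2-fold lower, beside 3.3% and 1.49% of all genes, and the median log2 ratio was 0.03. The sum was 38460 CPM in NOD against 45797 in CD1 (log2 -0.25, -0.26 to -0.24), and without *Cst3* it was 25626 and 27533 CPM (log2 -0.10). *Cst3*, the cystatin that inhibits cathepsins, thus carried most of that gap, at 12835 CPM in NOD against 18264 in CD1 (log2 -0.51, -0.53 to -0.49). *Ctsb*, a cathepsin, was higher in NOD at 1012 against 790 CPM, *Tpp1*, a peptidase, was lower at 51.4 against 89.1 CPM, and *Ctse* was lower at 24.7 against 64.0 CPM (log2 -1.37). None of the 32 membrane genes and regulators was past 2-fold; *Laptm5* stood at 1193 and 1298 CPM, *Mitf* at 288 and 198 CPM, and *Tfeb*, the regulator of lysosome formation, at 87.9 and 62.8 CPM.

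Among the 29 hydrolases, *Arsb* stood apart. It encodes arylsulfatase B, which removes sulfate from dermatan and chondroitin sulfate, and it stood at 70.6 CPM (180 UMIs, interval 60.7 to 81.7) in the NOD members and 945 CPM (13444 UMIs, interval 929 to 961) in the CD1 members, a log2 ratio of -3.74 (-3.96 to -3.53). After thinning, 12.5% of the NOD cells (8.76 to 17.1) and 73.4% of the CD1 cells (71.1 to 75.6) held a UMI of it. The low level was seen in dividing macrophages as well, at 75.5 against 911 CPM. It was not seen in endothelial barcodes, at 97.9 CPM in NOD against 44.2 in CD1, or in T barcodes, at 252 and 327 CPM. *Acp5*, the tartrate-resistant acid phosphatase, was the hydrolase past 2-fold higher, at 97.3 CPM against 29.9 (log2 1.70, 1.47 to 1.93), while *Grn* (log2 0.34) and *Lipa* (-0.53) stayed within 2-fold.

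Among lipid genes a single transport gene carried most of the difference. Of 62 genes for lipid uptake, export, storage, synthesis and the lipid-associated macrophage state that passed, 1 was past 2-fold higher and 3 were past 2-fold lower in NOD, beside 3.3% and 1.49% of all genes. The sum was 13217 CPM in NOD against 19885 in CD1, and without *Apoe* it was 8052 and 7961 CPM (log2 0.02, -0.01 to 0.04). *Apoe*, the apolipoprotein that carries lipid out of macrophages, stood at 5164 CPM in NOD against 11924 in CD1 (log2 -1.21, -1.23 to -1.18). *Abca1*, the transporter that loads lipid onto apolipoproteins, was higher in NOD at 337 against 219 CPM, and *Mylip*, which encodes a ubiquitin ligase, at 300.1 against 190 CPM. The scavenger receptor gene *Cd36* was lower, at 347 against 501 CPM (log2 -0.53). *Trem2*, a lipid-sensing receptor, stood at 399 and 376 CPM (log2 0.09, -0.01 to 0.18).

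*Apoe* varied widely from cell to cell. The median was 5 UMIs per 2000 in NOD and 17 in CD1, the cells ranged from 0 to 87 in NOD and 0 to 249 in CD1, and 28.0% of NOD cells against 3.78% of CD1 cells held none. In empty droplets *Apoe* stood at 688 CPM in NOD against 4513 in CD1, so free RNA carried more of it in the CD1 library; with 10% of free RNA taken from both, the log2 ratio was -1.17. The levels in endothelial barcodes were close, at 394 and 376 CPM (log2 0.07).

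Of the lipid-associated macrophage genes, known from fat tissue and damaged tissue, *Spp1* (osteopontin) stood at 11.0 CPM in NOD against 147 in CD1 (log2 -3.74, -4.34 to -3.21) and was seen in 7.07% and 42.5% of members. *Mmp12*, the macrophage elastase, stood at 85.9 and 255 CPM (log2 -1.57, -1.77 to -1.37). *Cd72*, *Lgals3* and *Cd9* leaned the other way, at 571 against 350.0 CPM, 161 against 87.7 CPM and 115 against 69.1 CPM, although 65.6% of the NOD UMIs of *Lgals3* were in 5 cells and its log2 ratio was -0.12 at a mitochondrial limit of 5%. *Lpl*, the lipoprotein lipase, stood at 184 and 191 CPM. Among storage and synthesis genes *Ppargc1b* (log2 0.91) and *Plin2* (0.43) were somewhat higher in NOD, *Fads1* lower (-0.46), and *Elovl6*, a fatty acid elongase, was past 2-fold at 20.4 against 8.51 CPM, and passed the minimum only through its NOD level.

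Among the lists compared, which differ in length, the interferon-gamma GTPase, interferon-gamma response and type I interferon lists held the most genes past 2-fold by number. By share, all 5 monocyte and all 3 stromal genes that passed were past it as well. Only 1 gene of each of these 2 lists reached 10 CPM in CD1, however. The others passed only through their NOD level and had to be higher there. Of the 17 GTPases induced by interferon gamma that passed, 14 were at least 2-fold higher in NOD and none lower, beside 3.3% of all genes higher, and the median log2 ratio was 1.46. Among genes with at least 10 CPM in CD1, 10 of 13 GTPases, 8 of 17 other interferon-gamma targets and 20 of 37 type I genes were past 2-fold higher, beside 1.85% of all genes. They summed to 1148 CPM in NOD against 345 in CD1, and without *Iigp1* to 944 and 343 CPM. *Iigp1*, a GTPase that attacks the vacuoles of intracellular parasites, stood at 204 CPM (519 UMIs in 78 of 283 cells) in NOD and 2.53 CPM (36 UMIs in 18 of 1578 cells) in CD1. The log2 ratio was 6.33 (5.84 to 6.86), and the same gene was abundant in the endothelial barcodes of both libraries, at 807 and 446 CPM. *Gbp2b*, a guanylate-binding protein, stood at 94.9 and 7.52 CPM (log2 3.66), *Gbp6* at 21.2 and 1.62 CPM (3.71) and *Ifi47* at 72.6 and 18.6 CPM (1.96). *Gbp2* stood at 107 and 39.2 CPM. The genes at the low end were *9930111J21Rik1* (log2 0.28), *Gbp3* (0.69) and *Gbp9* (0.84). These GTPases form clusters of near copies, so reads may be split between neighbours.

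Other targets of interferon gamma were higher as well, 10 of 19 past 2-fold and none lower, beside 3.3% and 1.49% of all genes. *Cxcl9*, a chemokine that draws activated T cells, stood at 302 and 36.4 CPM (log2 3.06, 2.89 to 3.22) in NOD and CD1, and few cells carried the level: 47 of 283 NOD cells and 10 of 1578 CD1 cells held a UMI, and 71.6% of the NOD UMIs were in 5 cells. *Serpina3g*, a protease inhibitor, had 73.9% of its NOD UMIs in 5 cells. *Fcgr4*, a receptor for IgG2, was spread more evenly, at 157 and 42.4 CPM and in 56.5% and 26.5% of the members. *Aif1*, the most abundant gene of this list and also a macrophage marker, was near level (log2 0.18), and the immunoproteasome genes *Psmb8* and *Psmb9* stayed within 2-fold (0.61 and 0.63). In NOD, 22 cells held UMIs of both *Iigp1* and *Cxcl9*, which is 28.2% of the cells with *Iigp1* and 46.8% of those with *Cxcl9*.

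Of the type I interferon response genes, 25 of 42 were past 2-fold higher and 1 was past 2-fold lower, beside 3.3% and 1.49% of all genes. Their median log2 ratio was 1.21, and they summed to 5059 against 2571 CPM. *Ifi27l2a*, the most abundant by the mean of both libraries, stood at 525 and 327 CPM (log2 0.68). *Trim30d* stood at 117 and 5.06 CPM (log2 4.53, 4.15 to 4.92), in 136 NOD and 49 CD1 cells, and *Ifi44* at 20.4 and 0.562 CPM (8 UMIs in CD1). *Rsad2* (viperin), which blocks viral RNA synthesis, stood at 102 and 13.4 CPM, with 60.2% of the NOD UMIs in 5 cells, and *Ifit1*, which binds viral RNA, at 40.8 and 7.73 CPM. *Bst2* (tetherin), which holds budding virus on the cell, stood at 547 and 200.2 CPM and was found in 56.4% and 28.6% of thinned cells. *Ly6e* was the gene past 2-fold lower, at 169 and 360.0 CPM (log2 -1.09, -1.23 to -0.94), and *Irf9*, *Oas1a* and *Phf11b* had the smallest ratios of the rest (log2 0.26, 0.33 and 0.34). Among the 7 genes of the Ifi200 family that passed, *Mndal* (log2 2.00), *Ifi209* (1.78) and *Ifi204* (1.56) were past 2-fold higher, and *Aim2*, the sensor of cytosolic DNA, was level at 286 and 289 CPM.

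Most receptors and kinases of the interferon pathways lay within 2-fold. Of 13 genes 2 were past 2-fold higher, beside 3.3% of all genes. These were the feedback inhibitor *Usp18* (49.4 and 21.7 CPM) and the kinase gene *Jak2* (74.5 and 35.2 CPM). The median log2 ratio was 0.10, and the interval lay above 0 for 4 genes, below 0 for 3 and held 0 for 6. *Ifngr1* and *Ifngr2*, the receptor chains for interferon gamma, stood at 240 against 336 CPM and 241 against 269 CPM, and *Ifnar2* at 369 against 448 CPM.

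Promoter sequence was set beside these values for 1 gene of each interferon list, the most abundant one past 2-fold among those with a usable window in the RefSeq table. For printing, windows on 1 chromosome were left out, and *Iigp1*, the most abundant GTPase gene, had no usable window. Where a gene had several windows, the one with the most kinds of match was printed. The printed windows therefore do not show how common matches are. The RefSeq windows reach from 250 bases before to 50 bases after a start site on GRCm38.p6, whereas the counts rest on GRCm39, so the positions serve only for the sequence. The letters GAAA, any 2 bases and GAAA (the core of the ISRE, the element of type I interferon signalling) and TTC, any 3 bases and GAA (the GAS element of interferon-gamma signalling) were searched on both strands; GAS letters can overlap ISRE letters, and a match is a description and not a binding site. Capitals mark matches. The windows lie at chr3:142620413-142620712 on the plus strand for *Gbp2*, chr8:71537423-71537722 on the minus strand for *Bst2* and chr5:92328030-92328329 on the minus strand for *Cxcl9*, which has no match.
Gbp2: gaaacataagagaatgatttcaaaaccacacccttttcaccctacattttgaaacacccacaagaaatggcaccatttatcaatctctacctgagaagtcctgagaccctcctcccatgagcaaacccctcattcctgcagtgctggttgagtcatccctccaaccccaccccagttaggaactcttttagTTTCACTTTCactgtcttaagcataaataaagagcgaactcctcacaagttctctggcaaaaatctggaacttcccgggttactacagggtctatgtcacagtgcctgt
Bst2: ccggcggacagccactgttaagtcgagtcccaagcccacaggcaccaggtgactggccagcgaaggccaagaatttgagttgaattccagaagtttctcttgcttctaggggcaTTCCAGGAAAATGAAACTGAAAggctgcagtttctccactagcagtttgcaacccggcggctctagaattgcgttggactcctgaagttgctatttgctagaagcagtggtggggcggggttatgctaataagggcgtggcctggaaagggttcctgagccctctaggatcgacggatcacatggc
Cxcl9: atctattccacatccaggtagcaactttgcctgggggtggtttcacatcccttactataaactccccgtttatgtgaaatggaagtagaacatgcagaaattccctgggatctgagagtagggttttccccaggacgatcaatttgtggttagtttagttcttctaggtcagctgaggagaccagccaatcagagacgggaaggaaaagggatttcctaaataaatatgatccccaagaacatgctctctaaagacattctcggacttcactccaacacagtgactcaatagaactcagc
ISRE letters were in a window of 10 of the 11 GTPase genes with a window (90.9%), 17 of 31 type I genes (54.8%) and 3 of 12 interferon-gamma response genes (25.0%), against 4.16% of the genes with a mean of at least 10 CPM and a window, and 3.99% of all 27025 genes with a window. GAS letters were in 5 of 11, 6 of 31 and 5 of 12, against 8.18% and 9.55%. The letters TCAC joined to GTGA, to which the lysosomal regulator TFEB binds, were in 7 of 64 lysosomal genes (10.9%), against 2.69% and 1.12%.

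The higher interferon levels were not confined to a few NOD cells, although the upper tail was longer. Among 2000 thinned UMIs, the type I list had a median of 6 UMIs in NOD and 4 in CD1, a 90th percentile of 19.7 against 10, and 27.3% of NOD cells against 8.87% of CD1 cells lay above the CD1 90th percentile. The interferon-gamma response list had medians of 8 and 5 UMIs, and 41.3% of NOD cells lay above the CD1 90th percentile of 9. The GTPases had medians of 1 and 0, and 33.0% of NOD cells and 57.4% of CD1 cells held none. Class I was higher in NOD from the 5th to the 95th percentile, with medians of 20 and 14 UMIs and 10th percentiles of 11 and 8. The lysosomal genes had medians of 76 and 92 UMIs, and the identity genes had medians of 53 and 52. The identity list holds genes of the rule itself, so its likeness was set in part by the selection.

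**Figure D4:**
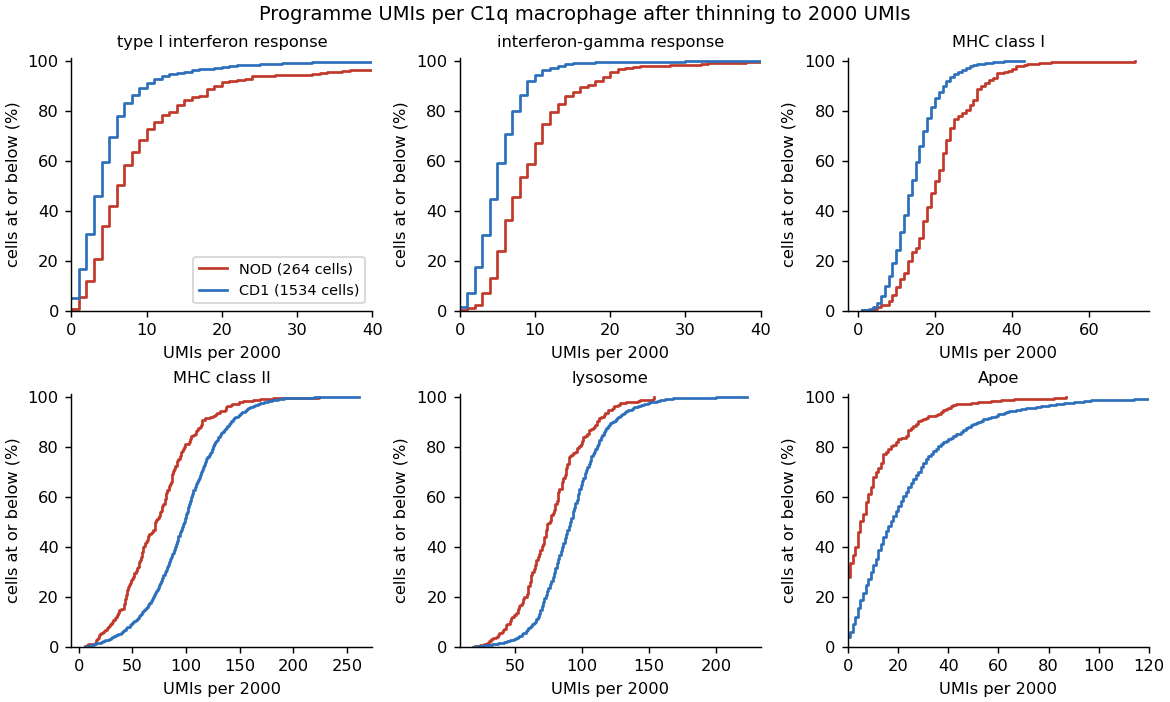
Share of cells (vertical axis, %) with at most the number of UMIs on the horizontal axis out of 2000 thinned UMIs per cell, for 5 lists and *Apoe*, in 264 NOD (red) and 1534 CD1 (blue) C1q macrophages; the horizontal axes of both interferon panels stop at 40 UMIs and that of *Apoe* at 120. The NOD curves lie to the right for the interferon lists and class I (medians 20 against 14) and to the left for class II (71.5 against 98.5), the lysosome and *Apoe*.

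Interferon genes were also higher in NOD in other barcodes of the same libraries. The type I list stood at 7322 CPM in NOD against 5721 in CD1 in endothelial barcodes (log2 0.36), at 3695 and 2211 CPM in T barcodes (0.74) and at 5096 and 2641 CPM in dividing C1q macrophages (0.95), beside 0.98 in the members. The GTPases had log2 ratios of 0.71, 0.69 and 2.13 in these groups and 1.73 in the members. Within the CD1 library the GTPases stood at 345 CPM in the members and 297 in dividing macrophages, against 2035 in endothelial and 769 in T barcodes. In empty droplets the GTPases summed to 1215 CPM in NOD against 827 in CD1, and the type I genes to 3989 and 3275 CPM. These barcode groups come from the same libraries and share whatever sets the libraries apart; whether the strain gap differed between cell types was not tested.

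Receptors for antibody and complement were mostly level, with 2 of 15 past 2-fold higher, beside 3.3% of all genes. Besides *Fcgr4*, this was *C3*, the central complement protein, at 18.8 and 1.76 CPM, with 85.4% of the NOD UMIs in 5 cells, which passed the minimum only through its NOD level. *C5ar1*, the receptor for the C5a fragment, stood at 164 against 86.8 CPM (log2 0.92), *Fcgr2b*, the inhibitory IgG receptor, at 32.6 against 50.05 CPM (-0.62), and *Fcer1g*, the shared signalling chain, at 1209 against 1353 CPM. Of 16 genes for the uptake of dying cells, 1 was past 2-fold higher and none lower, beside 3.3% and 1.49% of all genes. The gene past 2-fold was *Mrc1*, which had most of its NOD UMIs in 5 cells, as given above. *Clec7a* (Dectin-1) was lower at 109 against 194 CPM (log2 -0.84), and *Pros1* and *Havcr2* were near level (0.05 and 0.11).

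Chemokine and cytokine genes split, 6 of 24 past 2-fold higher and 3 lower in NOD, beside 3.3% and 1.49% of all genes, the lower ones being *Apoe* and *Spp1*, which are in this list as secreted factors, and *Il1a*. *Ccl12*, which acts on CCR2, stood at 678 CPM in NOD against 105 in CD1 (log2 2.69, 2.59 to 2.79), and was found in 43.2% (37.1 to 49.4) and 13.4% (11.8 to 15.2) of thinned cells, against 0.358% and 0.0456% of endothelial barcodes. It was higher in dividing macrophages too (log2 3.28). *Ccl8*, a further monocyte chemokine, stood at 19.6 and 0.703 CPM and was seen in only 12 NOD and 6 CD1 cells; it passed the minimum only through its NOD level. *Ccl5* stood at 123 and 32.1 CPM, with 66.6% in 5 cells and 1702 CPM in the NOD empty droplets, and with free RNA subtracted at 10% nothing of the NOD level was left, so that its log2 ratio, against a floor of 3 UMIs, turned to -4.09. *Il1a*, which encodes interleukin 1 alpha, stood at 65.1 and 168 CPM (log2 -1.37).

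Stress genes, which respond to the preparation of cells, were compared because both strains were dissociated. Of 23 immediate early and heat shock genes, 3 were past 2-fold higher in NOD, beside 3.3% of all genes, all of them for heat shock proteins: *Hsph1* (48.7 and 13.01 CPM, log2 1.90), *Hspa1b* (51.0 and 16.5 CPM, 1.63) and *Hspa1a* (100.4 and 35.7 CPM, 1.49). The same genes were higher in NOD in endothelial barcodes (log2 1.36, 0.91 and 0.59) and T barcodes (1.54, 1.44 and 1.89). *Jun*, the most abundant, was level at 849 and 892 CPM, *Fosb* was higher (log2 0.73) and *Junb* lower (-0.58). The part of stress in the other differences was not tested. Of 10 genes for iron and redox none was past 2-fold; the ferritin chains *Fth1* and *Ftl1* stood at 4682 against 6005 CPM and 1901 against 2446 CPM.

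Outside the lists, the genes highest in NOD by the bound of the interval nearest 0 were led by *Gvin3*, a very large interferon-inducible GTPase, at 470.0 CPM in NOD against 1.97 in CD1 (log2 7.90). Each of the 12 highest was below 10 CPM in CD1, so it passed the minimum only through its NOD level and had to be higher there. *Gvin3* was low in every CD1 barcode group, at 4.01 CPM in endothelial and 14.7 in T barcodes, against 96.5 and 675 CPM in NOD. *BC018473* had the same pattern, at 45.5 and 0.844 CPM, with log2 ratios of 4.26 in endothelial and 6.70 in T barcodes. In empty droplets *Gvin3* stood at 292 and 2.08 CPM and *BC018473* at 66.3 and 0.593 CPM. *H2-M2*, a non-classical class I gene, stood at 121 and 5.41 CPM, in 79 of 283 and 28 of 1578 cells, and below 1 CPM in endothelial and T barcodes of both libraries; in the 29 NOD and 7 CD1 dendritic barcodes it stood higher than in the members, at 301 and 254 CPM. *Iigp1c*, a relative of *Iigp1*, stood at 98.9 and 6.19 CPM, against 39.1 and 31.4 CPM in endothelial barcodes. *Chic1* stood at 32.2 and 1.27 CPM, with a log2 ratio of 0.66 in endothelial barcodes, and at 35.6 and 27.6 CPM in T barcodes. *Gm40892* stood at 62.8 and 0.844 CPM, at 246 and 48.1 CPM in T barcodes and at 55.3 and 3.26 CPM in empty droplets.

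The other 6 of these 12 genes had most of their NOD UMIs in 5 cells or fewer. All 78 NOD UMIs of *Fgf10*, a growth factor of mesenchyme, were in 1 cell, those of *Retnla* in 2 cells and those of *Mgp* in 5 cells. *Grm8* had 94.2% of its NOD UMIs in 5 cells, and *Gm36161* and *Colec12* had 81.8% and 81.7%. The log2 ratio of *Grm8* was 4.18, and -1.26 with the rule applied after thinning. That of *Mgp* was 4.69, and 0.80 among members with no UMI of 14 genes of other lineages. *Gm36161* and *Colec12* were each found in 14 NOD cells and *Grm8* in 11.

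The genes lowest in NOD included several that were close to absent. Of the 12 lowest, *Abcb1b*, *Slc15a2*, *Gm46987*, *Adam22*, *Fgf2*, *Adgrl2*, *Rtn4rl1* and *Ldhb* were below 10 CPM in NOD. These genes passed the minimum only through their CD1 level and had to be lower in NOD. *Abcb1b*, an efflux pump of the multidrug resistance family, had 0 UMIs in the 283 NOD members and 1301 UMIs in 699 of the 1578 CD1 members (91.5 CPM). Against a floor of 3 UMIs over the NOD members this is at least 77.7-fold lower, and a count of 0 in 283 cells allows up to 1.06% of cells to hold a detected UMI; cells that express the gene without a captured UMI are not limited by it. It was seen elsewhere in NOD, at 4.71 CPM in endothelial and 1.72 in T barcodes, against 13.6 and 34.03 CPM in CD1. *Slc15a2*, a transporter of small peptides, had 2 and 616 UMIs and was as low in NOD endothelial barcodes (0.650 against 32.5 CPM). *Hpgd*, which inactivates prostaglandins, was the most abundant of the group in CD1, at 62.8 CPM in NOD against 878 in CD1 (log2 -3.81, -4.04 to -3.58). It was found in 7.95% and 68.8% of thinned cells, in under 1% of endothelial and T barcodes, and at 129 against 774 CPM in dividing macrophages.

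*Adam22*, *Fgf2* and *Adgrl2* stood at 2.75 and 60.0 CPM, 0.785 and 27.4 CPM and 2.75 and 40.9 CPM. The log2 ratio of *Adam22* was -4.45, and -2.73 under a looser rule with at least 2 C1q UMIs and 1 *Csf1r* UMI. In dendritic barcodes *Adam22* stood at 314 CPM in NOD against 19.5 in CD1. *Adgrl2* was nonetheless abundant and near level in endothelial barcodes (439 and 486 CPM), and in empty droplets it stood at 26.9 and 105 CPM, above the members; its log2 ratio of -3.90 was -9.19 with free RNA subtracted at 10%, which left close to nothing of the NOD level. *Rtn4rl1* (8.63 and 66.6 CPM), *Ldhb*, a subunit of lactate dehydrogenase (2.75 and 28.2 CPM), and *Ccr1*, a chemokine receptor (24.3 and 148 CPM), were low in NOD macrophages while in endothelial barcodes *Ldhb* had a log2 ratio of 0.63 (0.13 to 1.12); *Ccr1* was too rare there to compare, with 3 and 10 UMIs. *Mir6236* and *Gm15772* were lower in NOD in all 3 groups (log2 -2.47 and -2.44 in the members, -1.96 and -2.74 in endothelial and -1.77 and -3.04 in T barcodes). In empty droplets *Mir6236* stood at 1057 CPM in NOD against 8148 in CD1, far above the members (66.3 and 368 CPM), and no ratio was left with free RNA subtracted. *Gm15772* stood there at 123 and 413 CPM. *Gm46987* had 0 UMIs in NOD and 285 in CD1 (20.04 CPM), and stood at 81.9 CPM in the CD1 empty droplets. The part of free RNA in these ratios was not tested further. The reads of both strains were counted against 1 reference genome, and the part of strain differences in sequence or gene copies in any of these values was not tested.

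**Figure D5:**
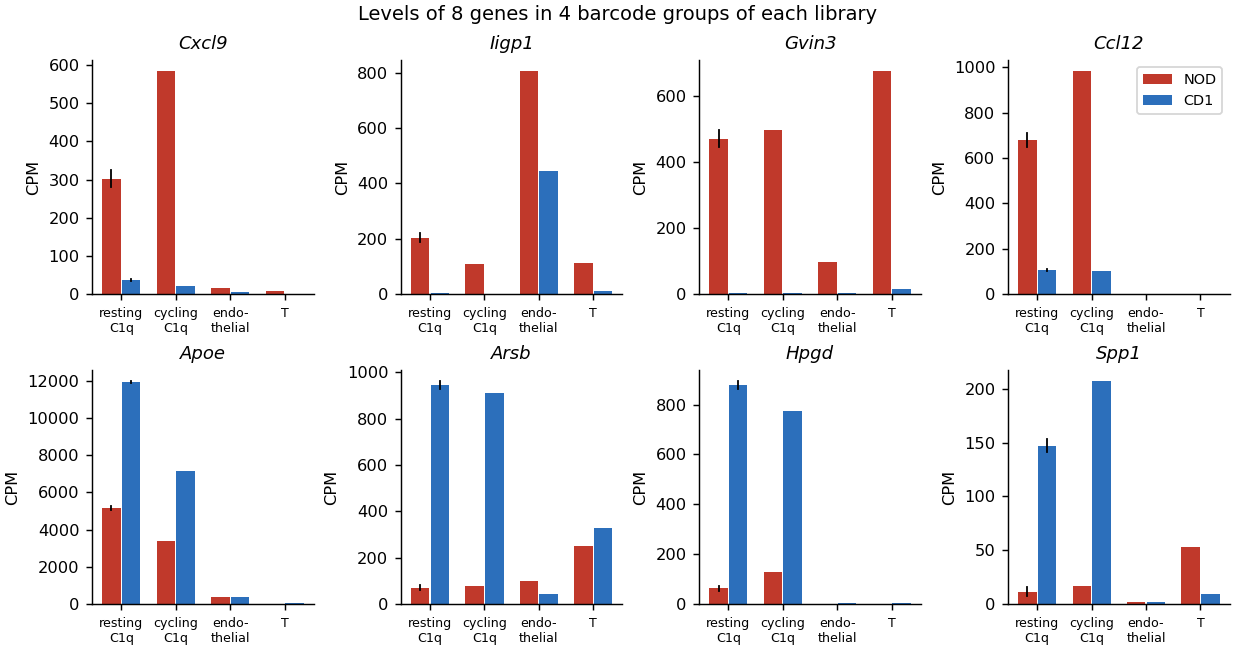
CPM of 8 genes (linear axes from 0) in C1q macrophages that are not dividing, dividing C1q macrophages, endothelial and T barcodes of the NOD (red) and CD1 (blue) libraries; black lines on the first pair of bars are 95% Poisson intervals. *Arsb* and *Hpgd* are low in NOD in both macrophage groups (70.6 against 945 and 62.8 against 878 CPM in the first), *Gvin3* is low in every CD1 group, and *Iigp1* is highest in endothelial barcodes of both strains (807 and 446 CPM).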

How the data were processed

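Single cells of the salivary glands of 1 NOD/ShiLtJ and 1 CD1 pool were captured in droplets and sequenced. The submitters' processing notes name the GRCm39 build, Cell Ranger 8.0.0, Seurat 5.0.1 and R 4.3.1, and the authors deposited unfiltered matrices of UMI counts per gene and barcode, with 52790319 (NOD) and 56483149 (CD1) UMIs and 50768 genes. A barcode was kept if it held 500 UMIs or more, 300 genes or more and no more than 10% of its UMIs in 37 mitochondrial genes, and the members were taken from the kept barcodes by the UMI thresholds given in the report. Doublets were not removed. Endothelial, T and dendritic barcodes were taken by at least 2 UMIs of their own markers and at most 1 of each other set. Dendritic barcodes also needed at least 10 UMIs of *H2-Ab1* and *Cd74* together. Counts were summed over cells and divided by the total (CPM), with Poisson intervals, and ratios carry exact conditional binomial intervals, both at 95%. These cover counting error only. With 1 library per strain no test was run. Spreads, shares given for thinned cells and the endothelial and T shares beside them were taken after thinning to 2000 UMIs. Shares and counts of cells given for the members, as for *Spp1*, *Fcgr4*, *Clec9a* and *Ccr2*, were taken without thinning. Genes needed a mean of 10 CPM, and past 2-fold means a log2 ratio of at least 1 in either direction. Python 3.11.15, numpy 2.4.6, scipy 1.17.1, pandas 2.3.3 and scanpy 1.11.5 (Scrublet) were used, and the scripts were tested on simulated data.

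The members and the 36 gene lists were chosen with earlier results of these data known, so that none of the list counts is independent support. Named genes are the class markers, each list's most abundant gene and up to 4 highest and 4 lowest in NOD by the interval bound nearest 0, and outside the lists the 12 highest and 12 lowest. Genes named at 0 or near 0 UMIs, the interferon genes with the smallest ratios, *P2ry12*, *Tmem119*, *H2-Ea*, *H2-Eb1*, *Bst2* and *Gbp2* were chosen after their values were seen. A few genes that the rule names are not reported here. Of 636 genes in the lists, 8 symbols did not match the files. Families of near-identical copies (H2-Q and H2-T, Gbp, Irg, Gvin, Trim30, Ifi200, Oas, Klk1b, Dcpp) may have had reads split between members, and their values are uncertain. Alternatives covered the barcode filters, stricter and looser thresholds, doublet removal, scaling, equal weight for each cell, left-out monocyte-like cells, the expression minimum and the thinning depth. Subtraction of free RNA at 10% in both libraries and trimming of the 2% of cells highest in each gene were chosen after seeing the data, as was a count of genes over those at 10 CPM or more in CD1.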

Additional observations from a re-analysis of the deposited data

Results flagged for a closer look

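In 9 genes the NOD and CD1 libraries differed past 2-fold in opposite directions in C1q macrophages and in endothelial barcodes. They were picked out of all genes by these values, and the difference between the cell types was not tested. For scale, 285 of 8635 genes (3.3%) were past 2-fold higher in the NOD members and 129 (1.49%) past 2-fold lower. *Chrm3*, which encodes the M3 muscarinic acetylcholine receptor that drives saliva secretion, was higher in NOD macrophages (log2 ratio 1.87) and lower in NOD endothelial barcodes (-1.74), and so was *Nr4a3*, a nuclear receptor (1.27 and -1.23). In the members *Chrm3* stood at 1599 CPM in NOD against 436 in CD1, and in endothelial barcodes at 22.1 and 73.7 CPM. The other 7 were lower in NOD macrophages and higher in NOD endothelial barcodes. For *Arsb*, the lysosomal arylsulfatase, the log2 ratios were -3.74 and 1.15. For *Napsa*, an aspartic protease, they were -1.89 and 2.39. For *St8sia6*, a sialyltransferase, they were -1.64 and 1.85, and for *Fap*, a surface protease, -1.34 and 1.81. For *Fam111a* they were -1.21 and 1.44, for *Arhgap24* -1.13 and 2.34, and for *Cdk14* -1.05 and 2.18.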

How the results depend on the processing

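No paired analysis was possible because each strain had 1 library. The interferon lists, class I and *Arsb*, *Apoe* and *Hpgd* kept their direction in every setting run. The genes at least 2-fold higher and lower in NOD numbered 285 and 129, 71 and 32 at a minimum mean of 50 CPM, and 1023 and 719 with no minimum beyond 20 UMIs, and 154 and 129 among genes that reached 10 CPM in CD1 alone. That last minimum could remove no lower gene, so its 129 was fixed in advance. At 50 CPM, with fewer genes tested, 6 interferon-gamma GTPases and 15 type I genes were past 2-fold, in place of 14 and 25. The class II log2 ratio of -0.40 was -0.46 at a mitochondrial limit of 5%, -0.38 under the looser rule, -0.35 with no UMI of 14 genes of other lineages, -0.38 without the highest Scrublet scores, -0.49 with median-of-ratios scaling, -0.42 on a total without mitochondrial, ribosomal and C1q genes, -0.38 with cells weighted equally, -0.38 with free RNA subtracted at 10%, -0.41 without cells with *Ccr2*, *Ly6c2* or *Plac8* and -0.43 when trimmed. In the same order, without the looser rule and with a mitochondrial limit of 20% (-0.23) added, the lysosomal ratio of -0.25 was -0.28, -0.23, -0.24, -0.34, -0.27, -0.23, -0.22, -0.19 and -0.28. The members made up 5.76% of NOD and 27.8% of CD1 barcodes, 6.5% and 25.8% at the 5% limit, 4.62% and 24.8% under the stricter rule, 6.98% and 30.9% under the looser one, 3.97% and 23.4% with the 14 lineage genes, and 4.56% and 25.8% without the cells with monocyte genes. The CD1 share was also 29.7% at a minimum of 1000 UMIs, 26.4% at the 20% limit and 31.0% after thinning. Of 81 named genes past 2-fold, 72 to 81 stayed past it in the same direction, the fewest with the lineage genes and without the cells with monocyte genes (72 each). No ratio was left for 6 when trimmed, 5 without the cells with monocyte genes, 3 with the lineage genes, 2 each with free RNA subtracted and without the highest Scrublet scores and 1 after thinning. Ratios moved by over 1.5 times for up to 31 (trimmed). *Ccl5* turned to -4.09 (NOD at the floor of 3 UMIs) with free RNA subtracted, *Dcpp1* and *Dcpp2* to -0.65 and -0.031 with the lineage genes, and *Grm8* to -1.26 after thinning; the cause was not tested. The planned subtraction of free RNA by the secretory list was not run, because in NOD that list stood lower in empty droplets (322 CPM) than in the members (406 CPM). The 283 NOD members limit what can be seen there: taken as 3 UMIs, the limit for a gene with no UMI is 1.18 CPM. With 1 library per strain, strain, pool, capture and dissociation cannot be told apart.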
